A study of Mus musculus with 6 samples.

Results

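Chondroitin sulfate chains are assembled by a small set of enzymes, and the lecticans are the large proteoglycans of brain and cartilage that carry many of these chains. The 10 genes described here are the chondroitin synthases Chsy1 and Chsy3, the polymerizing factors Chpf and Chpf2, the N-acetylgalactosaminyltransferases (GalNAc transferases) Csgalnact1 and Csgalnact2, and the lecticans versican (Vcan), neurocan (Ncan), brevican (Bcan) and aggrecan (Acan). They were taken by symbol from the probe sets annotated with exactly 1 gene, and all 10 were found among 19938 such genes, each with a single probe set. RNA had been measured on Affymetrix Mouse Gene 1.0 ST arrays, whose probes lie along the length of a transcript, with 1 sample per array. The samples were immortalized neural precursor-like cells with a homozygous deletion of Lgi1 (knock-out, 3 arrays) and Lgi1 wild-type cells of the same kind (3 arrays). Embryonic brain of strain C57BL/6J, taken at day 13.5, was the source of both genotypes, and the immortalized cells were kept in RPMI with 1% serum. The labels name neither the deleted part of Lgi1 nor the means of immortalization nor how many embryos or lines stand behind each genotype. The titles call the arrays biological replicates, without saying what was replicated. All p-values therefore refer to the spread among these 6 samples, part or all of which may be technical.

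In the assembly of a chondroitin chain, a short linker is first built on a serine of the core protein, starting with xylose. A GalNAc transferase then commits the linker to chondroitin, complexes of synthases and polymerizing factors lengthen the chain by adding glucuronic acid and N-acetylgalactosamine in turn, and sulfotransferases modify it. Lecticans bind hyaluronan at one end and tenascins or fibulins at the other, and ADAMTS proteases cleave them. In the developing brain they form much of the matrix around neural precursors, and in the adult brain they are components of perineuronal nets.

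The medians of the 6 arrays lay between 6.36 and 6.41 on the log2 scale. Receptor genes of smell and pheromone sensing (Olfr, Vmn1r and Vmn2r, 1190 in all) served to judge background, and a level under their 95th percentile of 5.67 is called background here. Lgi1, the deleted gene, read 4.53, 4.57 and 4.54 on the knock-out arrays, against 4.61, 4.75 and 4.94 on the wild-type arrays, all at background, so it could not be used to check the labels. The genotypes also differed in the sex chromosomes: Xist averaged 12.44 ± 0.051 on knock-out and 4.64 ± 0.141 on wild-type arrays, and the Y-linked Eif2s3y 4.67 ± 0.133 on knock-out and 10.19 ± 0.172 on wild-type arrays (SD, n = 3 each). Of 10 neural progenitor markers 5 were lower in knock-out cells and none higher, and the mean log2 level of the list was 7.24 to 7.25 on knock-out and 8.52 to 8.57 on wild-type arrays. Sox2, the factor that maintains neural progenitors, averaged 5.35 in knock-out cells, which is background, and 11.26 in wild-type cells. Of 10 fibroblast markers 9 were higher and none lower, with a mean level of 10.05 to 10.16 on knock-out and 7.34 to 7.40 on wild-type arrays. Of 8 cartilage markers 4 were higher and none lower, with a mean level of 6.90 to 7.05 on knock-out and 5.89 to 5.97 on wild-type arrays, while Matn1, Comp and Snorc lay at background in both genotypes. Markers of neurons (1 of 10 higher and 1 lower), astrocytes (1 of 6 and 1), oligodendrocytes (0 of 5 and 1), microglia (0 of 6 and 0) and endothelium (1 of 6 and 1) mostly did not pass, and all 6 microglia markers lay at background. Beside these marker counts, 14.0% of all genes were called as higher and 17.6% as lower. With arrays paired by replicate number, 1 neuron marker was higher and 3 lower, and 1 neural progenitor marker was higher. The part of these differences in the results on chondroitin genes was not tested. Xist and Eif2s3y split with genotype on all 6 arrays, so sex or cell line cannot be told apart from the deletion of Lgi1. In bulk RNA fewer cells of a type and less RNA per cell cannot be told apart either.

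The enzymes that build the chain split into 1 large fall and several small rises. Chsy3, a chondroitin synthase that lengthens the chain, fell to background in knock-out cells, while Chsy1, Chpf, Chpf2 and Csgalnact2 rose by less than 2-fold each. Csgalnact1 also passed as higher, at levels that were background in both genotypes. Of all 10 genes, 6 rose, Csgalnact1 included, 2 fell and 2 did not pass (limma with Benjamini-Hochberg adjustment over all genes, called at an adjusted p under 0.05). Over all 19938 genes 31.6% were called, 14.0% as higher and 17.6% as lower, so the share of called members stands beside a background that is itself large. The arrays of the genotypes did not overlap for 8 of the 10 members, against 42.3% of all genes. The median log2 fold change was +0.31 over the members and −0.012 over all genes. The median of the members lies between the values of Csgalnact1 and Csgalnact2. Csgalnact1, Ncan and Bcan, all at background, enter it, so it gives no size of change for the group.

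**Figure D1:**
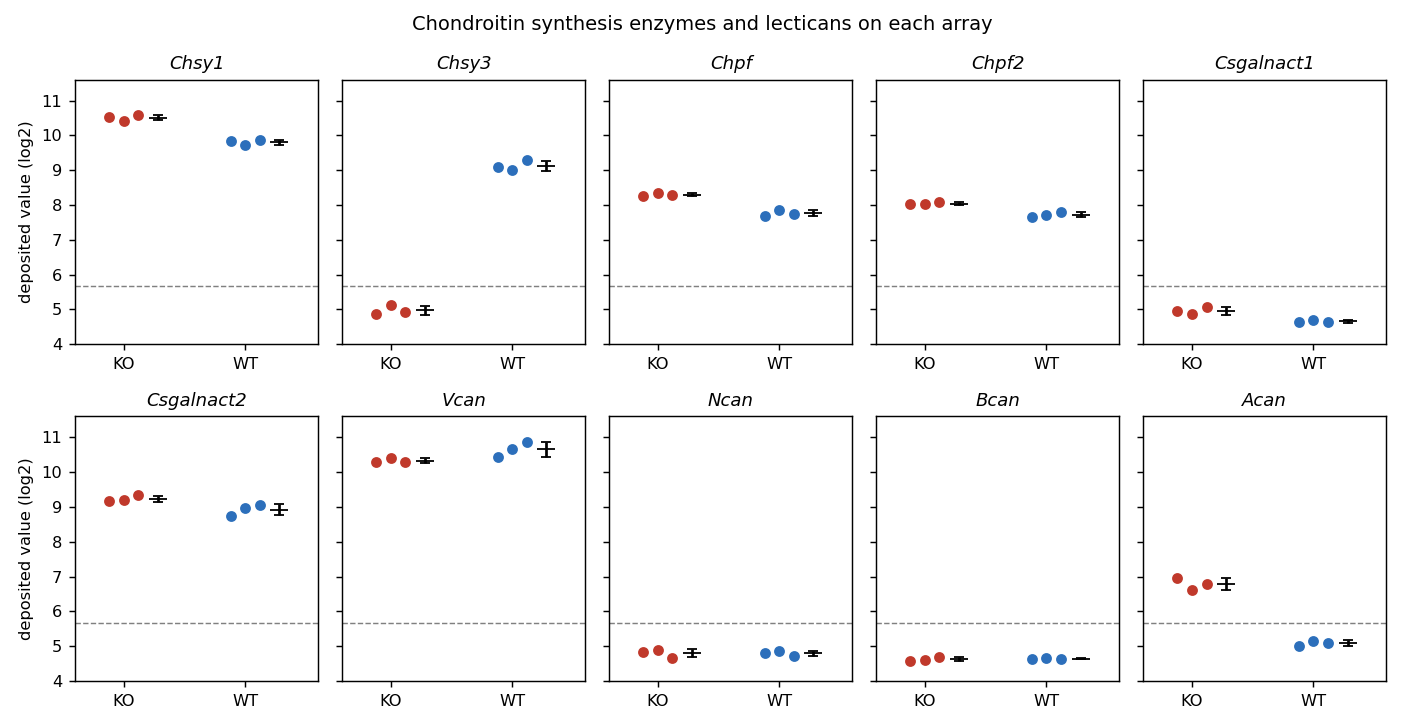
Deposited log2 values of the 10 genes on the 3 knock-out (KO, red) and 3 wild-type (WT, blue) arrays. Bars to the right of the points are the mean ± SD (n = 3), and the dashed line is the background level of 5.67. Chsy3 lies under the line on the knock-out arrays alone and Acan on the wild-type arrays alone, while Csgalnact1, Ncan and Bcan lie under it on all arrays. Levels of different genes are not comparable on this axis, since each probe set binds with its own strength.

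Chsy3 (probe set 10455948, chromosome 18) read 4.88, 5.12 and 4.92 on the knock-out arrays, against 9.09, 9.01 and 9.29 on the wild-type arrays. No knock-out array came near a wild-type array, and all 3 knock-out values were at background. The log2 fold change was −4.16 (SE 0.09, 95% interval −4.36 to −3.95, limma adjusted p = 3e-10), the 15th largest fall among all genes. Set against the background level of 5.67 the fall was at least 11.0-fold. Over 15 other ways of fitting the data the log2 fold change lay between −4.23 and −4.07.

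Chsy1 (probe set 10554013, chromosome 7), the other synthase, moved the other way. It read 10.52, 10.43 and 10.58 on the knock-out arrays, against 9.84, 9.73 and 9.86 on the wild-type arrays. The groups did not overlap, and the log2 fold change was +0.70 (SE 0.07, 95% interval 0.55 to 0.85, adjusted p = 2.27e-05), or 1.62-fold. The rise of Chsy1 was small beside the fall of Chsy3.

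The polymerizing factors, which act as partners of the synthases, rose together by small amounts. Chpf (probe set 10355864, chromosome 1) read 8.25, 8.33 and 8.30 in knock-out cells, against 7.68, 7.85 and 7.75 in wild-type cells, a log2 fold change of +0.53 (SE 0.07, adjusted p = 0.000144). Chpf2 (probe set 10520234, chromosome 5) read 8.04, 8.02 and 8.08 in knock-out cells, against 7.65, 7.70 and 7.80 in wild-type cells, a log2 fold change of +0.33 (SE 0.06, adjusted p = 0.00262). For both genes every knock-out array lay above every wild-type array. The log2 change of Chpf2 minus that of Chpf was −0.20 (exact two-sided permutation p = 0.10, adjusted p = 0.15 over 6 pairs of members). That test cannot give a p under 0.10 with 3 arrays against 3. The other 5 pairs each hold a gene at background in at least 1 genotype. They were tested too and count in the adjustment, but nothing is read from their tests.

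Of the GalNAc transferases, which add the first N-acetylgalactosamine of the chain, Csgalnact2 was the one above background. Csgalnact2 (probe set 10547217, chromosome 6) read 9.16, 9.20 and 9.33 in knock-out cells, against 8.74, 8.97 and 9.05 in wild-type cells, a log2 fold change of +0.31 (SE 0.09, adjusted p = 0.0217). Its lowest knock-out array lay just above its highest wild-type array, and 3 alternatives ended the call: leaving out knock-out replicate 3 (log2 +0.26, adjusted p = 0.0848) or wild-type replicate 1 (+0.22, adjusted p = 0.0701), and unmoderated variances (adjusted p = 0.131). Csgalnact1 (probe set 10579012, chromosome 8) read 4.94, 4.86 and 5.07 in knock-out cells, against 4.63, 4.70 and 4.63 in wild-type cells. It passed as higher (adjusted p = 0.00688), but all 6 values lay at background, so no size of change is given for it.

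RefSeq promoter windows (build GRCm38.p6), matched by symbol, are described for 8 of the 10 members. Windows of Chsy3 and Csgalnact1 are not included, so the counts of windows leave out Chsy3, the member with the largest change. The 250 bases upstream of the annotated start are shown for 3 enzymes and 1 lectican that rose, as the stretch in which members that moved together can be compared. Each is written 5′ to 3′ on the gene's strand, with GC boxes, the motif GGGCGG or its reverse complement CCGCCC bound by SP family factors, in capitals.
Chsy1, chr7:66109242-66109491, plus strand: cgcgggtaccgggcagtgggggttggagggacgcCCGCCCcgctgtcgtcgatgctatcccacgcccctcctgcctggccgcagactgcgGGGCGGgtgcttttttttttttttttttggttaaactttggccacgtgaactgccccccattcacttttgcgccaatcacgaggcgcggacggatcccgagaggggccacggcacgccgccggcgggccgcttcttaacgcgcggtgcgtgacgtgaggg
Chpf2, chr5:24586494-24586743, plus strand: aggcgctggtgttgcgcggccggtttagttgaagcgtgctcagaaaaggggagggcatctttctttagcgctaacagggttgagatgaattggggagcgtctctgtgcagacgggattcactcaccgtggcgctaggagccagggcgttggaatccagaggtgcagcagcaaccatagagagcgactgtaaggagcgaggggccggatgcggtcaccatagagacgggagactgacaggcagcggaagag
Csgalnact2, chr6:118139141-118139390, minus strand: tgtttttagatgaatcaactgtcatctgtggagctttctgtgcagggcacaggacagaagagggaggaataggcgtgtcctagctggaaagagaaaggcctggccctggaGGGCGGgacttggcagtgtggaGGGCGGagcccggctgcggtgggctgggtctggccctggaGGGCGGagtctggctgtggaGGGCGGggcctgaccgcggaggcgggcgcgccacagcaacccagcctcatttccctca
Acan, chr7:79052976-79053225, plus strand: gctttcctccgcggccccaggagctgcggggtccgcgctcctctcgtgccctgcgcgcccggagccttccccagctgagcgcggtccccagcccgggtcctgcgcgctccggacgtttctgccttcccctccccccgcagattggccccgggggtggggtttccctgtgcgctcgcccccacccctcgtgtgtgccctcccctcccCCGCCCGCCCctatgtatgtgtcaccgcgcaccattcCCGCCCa
Chsy1 held 2 GC boxes counted on both strands, Csgalnact2 held 4, Acan held 3, of which a pair share bases, and Chpf2 held none. Chpf, which also rose, held 1, and its window, which runs into the neighbouring gene Tmem198, is not printed. The window of Acan overlaps the annotated gene Gm26633.
These letters occurred in 7 of the 10 windows of the 8 members and in 32.7% of all 32851 promoter windows of that length. Chpf2 and Csgalnact2 each have more than a single window, so this is not a count of members. The windows of Vcan, Ncan and Bcan, and a window each of Chpf2 and Csgalnact2 not printed above, overlap the member's own annotated gene. The letters TATAAA or TTTATA occurred in 1 of the 10 windows, that of Ncan, and in 12.4% of all windows. GC boxes occurred in members that rose, in Vcan, which was called lower, and in members that did not pass. A match to letters is a description and not a site of binding.

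Among the lecticans, Acan rose and Vcan fell slightly, while the nervous system lecticans Ncan and Bcan stayed at background in both genotypes. Acan (probe set 10554249, chromosome 7), the main proteoglycan of cartilage and a component of perineuronal nets, read 6.95, 6.60 and 6.77 in knock-out cells, against 5.001, 5.16 and 5.09 in wild-type cells. All wild-type values lay under the background level and all knock-out values above it. Acan and Chsy3 were the members changed at least 2-fold, a size that 5.32% of all genes reached with a call. The log2 fold change of Acan was +1.69 (SE 0.09, 95% interval 1.49 to 1.89, adjusted p = 2.06e-07), the rise of rank 328 among all genes, and against the background level the rise was at least 2.15-fold. The cartilage collagens Col2a1 and Col11a1 rose on the same arrays, by 1.49 and 1.76 on the log2 scale, as did Sox9, a transcription factor of cartilage and glia (+2.56). The cartilage collagen Col9a1 did not pass (log2 +0.07, adjusted p = 0.49). It averaged 5.75 in knock-out and 5.68 in wild-type cells, close to the background level, where a change could be missed.

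Vcan (probe set 10410931, chromosome 13), the lectican of embryonic mesenchyme, read 10.28, 10.41 and 10.28 in knock-out cells, against 10.42, 10.65 and 10.88 in wild-type cells. The arrays of the genotypes did not overlap, but the highest knock-out and the lowest wild-type array were nearly equal, and the wild-type arrays spread more widely (SD 0.0743 in knock-out and 0.226 in wild-type cells). The log2 fold change was −0.33 (SE 0.10, 95% interval −0.56 to −0.093, adjusted p = 0.0368). Vcan did not pass when knock-out replicate 1 (adjusted p = 0.105) or 3 (0.107), or wild-type replicate 2 (0.0858) or 3 (log2 −0.21, adjusted p = 0.112) was left out, nor with unmoderated variances (0.195), and Chsy3 was then the single member lower.

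Ncan (probe set 10579165, chromosome 8) read 4.83, 4.89 and 4.67 in knock-out cells, against 4.80, 4.85 and 4.72 in wild-type cells. Bcan (probe set 10499285, chromosome 3) read 4.58, 4.60 and 4.70 in knock-out cells, against 4.62, 4.65 and 4.63 in wild-type cells. The groups overlapped for both genes, and no difference was detectable at these levels. The 95% interval of the log2 difference was −0.16 to 0.18 for Ncan (adjusted p = 0.948) and −0.14 to 0.13 for Bcan (adjusted p = 0.965).

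The profiles most like those of the 2 members at the extremes were found by the Euclidean distance between values over the 6 arrays, each gene centred on its own mean. For Chsy3 the nearest genes were Skida1 (distance 0.25), Cp (0.34) and Cadm1 (0.37), with log2 fold changes of −4.25, −4.23 and −4.02. For Acan they were Nkd2 (0.17), Ercc6 (0.20) and Ptprd (0.20), with log2 fold changes of +1.74, +1.79 and +1.69. With 2 groups of 3 arrays this measure mostly ranks genes by the size of the difference between genotypes.

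Upstream of the polymerases, the enzymes of the linker shared by chondroitin and heparan sulfate gave 1 rise and 2 falls among 7. Their median log2 fold change was +0.0025, and 31.6% of all genes were called. Xylt1, 1 of the 2 xylosyltransferases that start the linker, read 6.20, 6.13 and 6.18 in knock-out cells, against 8.61, 8.64 and 8.99 in wild-type cells. It fell by 2.58 on the log2 scale (SE 0.10, adjusted p = 1.55e-08), with no overlap between genotypes and knock-out values above background. Its paralogue Xylt2 had a log2 difference of 0.01 (95% interval −0.16 to 0.18, adjusted p = 0.945). B3gat3, which adds the glucuronic acid that completes the linker, fell by 0.57 (adjusted p = 0.000226). Fam20b, the kinase that phosphorylates the xylose, passed narrowly as higher (+0.22, adjusted p = 0.0474), and 7 of 15 other fits did not call it (adjusted p up to 0.167).

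Enzymes that sulfate or epimerize the chain mostly rose, by less than 2-fold each. Of 10 measured, 7 rose, 1 fell and 2 did not pass, with a median log2 fold change of +0.31, against 14.0% of all genes called as higher. Of the 2 that did not pass, Chst7 lay at background in both genotypes, where a change could be missed. Dsel and Dse, the epimerases that convert chondroitin to dermatan sulfate, rose by 0.93 (SE 0.09, adjusted p = 3.41e-05) and 0.61 (SE 0.06, adjusted p = 3.95e-05). Dsel read 8.07, 8.10 and 7.99 in knock-out cells, against 6.92, 7.13 and 7.32 in wild-type cells. The groups were well apart. The sulfotransferases Chst15 (+0.79, adjusted p = 0.000201) and Chst12 (+0.54, adjusted p = 0.000875) rose likewise. The fall was that of Chst3, the sulfotransferase that makes the form of chondroitin abundant in cartilage and young brain (adjusted p = 0.00186), which averaged 5.39 in knock-out and 5.80 in wild-type cells. All knock-out arrays and wild-type replicate 2 (5.66) were at background, and the fall was at least 1.09-fold against background. The number called fell to 5, against 8, without knock-out replicate 2, knock-out replicate 3 or wild-type replicate 2.

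**Figure D2:**
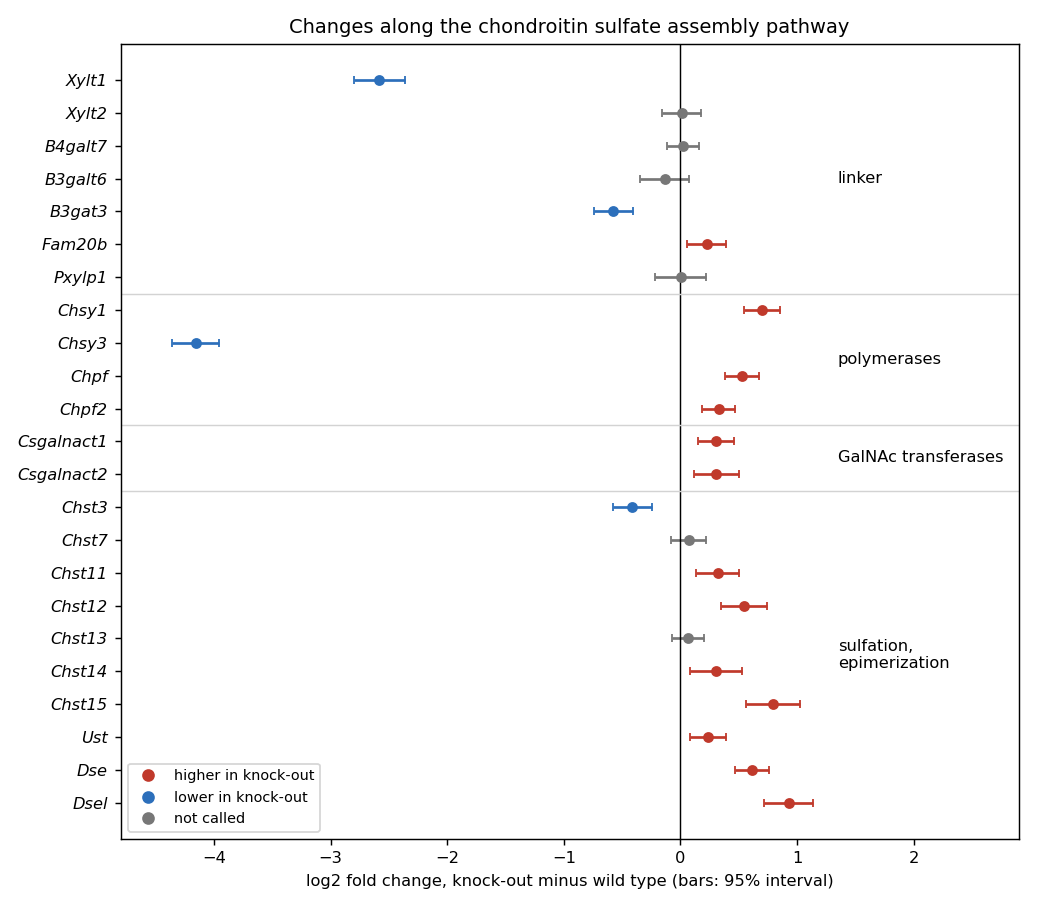
Log2 fold change (knock-out minus wild type, n = 3 arrays each) of the linker enzymes, the 6 chain-building members and the sulfation enzymes, in the order of assembly. Bars are 95% intervals from limma, and colours show the call at an adjusted p under 0.05. Chsy3 and Xylt1 stand apart at −4.16 and −2.58, and all other genes lie between −0.57 and +0.93. Csgalnact1 and Chst7 were at background in both genotypes, so their positions give no size of change. Those of Chsy3 and Chst3 rest on knock-out values at background.

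Genes that supply sugar nucleotides and sulfate gave 4 rises and 2 falls of 13 (median log2 fold change +0.03), beside 31.6% of all genes called. The nucleotide sugar transporter Slc35d2 rose by 1.08 (SE 0.06, adjusted p = 5.41e-07), and the sulfate transporter Slc26a2 by 0.29 (adjusted p = 0.0152). Slc26a2 did not pass without knock-out replicate 2 (adjusted p = 0.0551), knock-out replicate 3 (0.0608) or wild-type replicate 2 (0.0598), nor with unmoderated variances (0.0847). Ugp2, which makes UDP-glucose, fell by 0.56 (adjusted p = 0.000131) and Bpnt2, a Golgi nucleotidase that removes a by-product of sulfation, by 0.55 (adjusted p = 0.00062). The number called fell to 3, against 6, without knock-out replicate 2, knock-out replicate 3 or wild-type replicate 2.

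Of 7 ADAMTS proteases known to cleave lecticans 3 rose, each at least 2-fold, and 1 fell. Over all genes 31.6% were called, and 5.32% were called with a change of at least 2-fold. Adamts5 rose by 6.16 on the log2 scale (SE 0.08, limma adjusted p = 1.06e-11). Its wild-type arrays read 5.72, 5.79 and 5.73, just above background, so the size of its rise is uncertain. Adamts1 rose by 4.72 (SE 0.10, adjusted p = 2.72e-10). Adamts20 read 7.81, 7.61 and 7.58 in knock-out cells, against 5.39, 5.68 and 5.42 in wild-type cells (log2 +2.17, SE 0.09, adjusted p = 4.25e-08, and at least 3.97-fold against background). Adamts4, which like Adamts5 is known as an aggrecanase, read 7.59, 7.38 and 7.81 in knock-out cells, against 8.46, 8.10 and 8.30 in wild-type cells. It fell by 0.69 (SE 0.12, adjusted p = 0.00119), opposite in sign to Adamts5, and did not pass with unmoderated variances (adjusted p = 0.0559).

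Among 14 genes for lectican-binding proteins, hyaluronan synthases and hyaluronan receptors, 3 rose and 2 fell, beside 31.6% of all genes called. In both genotypes 8 lay at background, among them the perineuronal net component Tnr. The link proteins Hapln1, Hapln2, Hapln3 and Hapln4, which lock lecticans to hyaluronan, were also among these 8. Has2, a hyaluronan synthase, read 8.01, 7.96 and 8.75 in knock-out cells, against 5.55, 5.66 and 5.65 in wild-type cells. Replicate 3 stood above the other knock-out arrays, and the log2 fold change was +2.62 (SE 0.17, adjusted p = 1.26e-06), at least 5.92-fold against background. The lectican-binding fibulins Fbln2 and Fbln1 rose by 3.50 and 0.91 (adjusted p = 4.37e-09 and 4.39e-05). Cd44, a cell surface receptor of hyaluronan, fell by 0.96 (SE 0.08, adjusted p = 6.04e-06). The tenascin Tnc had a log2 difference of 0.18 (95% interval 0.02 to 0.35, adjusted p = 0.0888), and it passed once arrays were paired by replicate number (adjusted p = 0.0358).

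Of 11 genes that degrade hyaluronan or chondroitin, 4 rose and none fell (median log2 fold change +0.09), beside 31.6% of all genes called. Cemip, which takes part in the breakdown of hyaluronan, read 10.13, 10.09 and 10.33 in knock-out cells, against 5.22, 5.57 and 5.43 in wild-type cells. Its wild-type values were at background, and the log2 fold change was +4.78 (SE 0.10, adjusted p = 1.64e-10), at least 22.8-fold against background. Its relative Cemip2, a cell surface hyaluronidase, rose by 0.86 (adjusted p = 1e-05). The lysosomal enzymes Gusb and Idua, which remove uronic acids from the chains, rose by 0.48 and 0.47 (adjusted p = 0.000304 and 0.000143). The hyaluronidase gene Hyal3 had a log2 difference of 0.30 (adjusted p = 0.0941) and passed as higher once arrays were paired by replicate number (adjusted p = 0.0112).

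**Figure D3:**
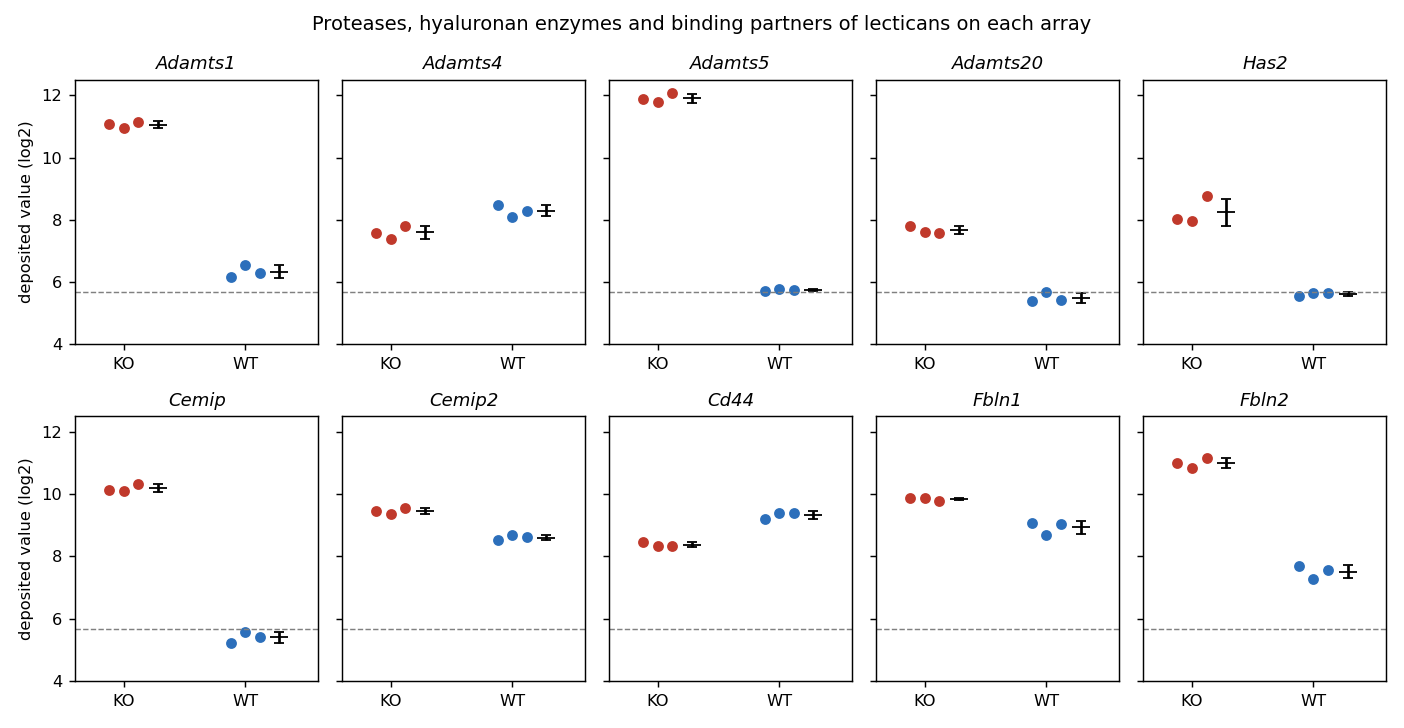
Deposited log2 values of 10 genes on the 3 knock-out (KO, red) and 3 wild-type (WT, blue) arrays. They encode lectican-cleaving proteases, hyaluronan enzymes, the hyaluronan receptor Cd44 and lectican-binding fibulins. Bars are the mean ± SD (n = 3), and the dashed line is the background level of 5.67. Adamts4 and Cd44 are lower in knock-out cells and the other 8 genes higher. Levels of different genes are not comparable on this axis.

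Beside 31.6% of all genes called, other proteins that carry chondroitin or dermatan sulfate chains gave 4 rises and no fall among 8 (median log2 fold change +0.48). They were Ptprz1, a receptor-type phosphatase of neural precursors (+6.43, at least 51.1-fold against background), the small matrix proteoglycan Bgn (+2.79), the progenitor and pericyte proteoglycan Cspg4 (+0.82, adjusted p = 0.000174) and the TGF-β co-receptor Tgfbr3 (+0.67, adjusted p = 0.000116). Dcn, a relative of Bgn, had a log2 difference of 0.30 with a 95% interval of −0.17 to 0.76 (adjusted p = 0.362).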

How the data were processed

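The authors deposited a table of 35556 probe sets by 6 arrays, whose range of values shows a log2 scale. Per the submitters' processing notes Partek was used, with no version. How background, normalization and summarization of probes were handled before deposit is not stated there. Per the labels' protocols, biotinylated cDNA was made from 250 ng of total RNA. The deposited values were used without further transformation. GEO's platform annotation gave 1 symbol to 21789 probe sets, several to 1621 and none to 12146, and the probe set with the highest mean was kept for each of 19938 genes. RefSeq tables (GRCm38.p6) gave chromosomes and promoters.

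The test between genotypes was that of limma 3.58.1 (R 4.3.3; lmFit, then eBayes, with 4 residual degrees of freedom before moderation), with Benjamini-Hochberg adjustment over all genes. The limma fit alone was also run on simulated data with independent noise, no pairing and few changed genes. Those settings differ from the data here, so nothing is read from that run. Arrays carry no read depth, and their number limits the precision. The members, the 9 pathway lists, the 8 marker lists and the tests were chosen with earlier results of these data known, as was background by olfactory and vomeronasal receptor genes. The rule for named genes took all members, the 4 largest called changes of each pathway list and the 3 profiles nearest to 2 members; unchanged or background genes named beside them were chosen after their values were seen. The titles number the arrays of both genotypes 1 to 3. After the genotype mean of each gene was removed, arrays that share a number correlated at 0.19 to 0.29 and the rest at −0.18 to −0.0047. Removing the mean itself pushes the rest towards negative values when the first are positive. The numbers were taken as pairs from the positive values alone. The main p-values, intervals and calls came from the fit without pairs. A replicate block was therefore among the alternatives. The others were leaving out single arrays, quantile normalization, median centring, filters on low values, averaging of probe sets, array weights, an intensity trend, unmoderated variances and other thresholds.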

Additional observations from a re-analysis of the deposited data

How the results depend on the processing

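Over up to 15 alternative fits, 632 of 667 values of the 45 named genes kept their direction and their side of the threshold. With the replicate number as a block, which pairs the arrays, 7000 genes were called, 6279 of them among the 6296 called without it, and it changed no call of a member (Vcan adjusted p = 0.0184, Csgalnact2 adjusted p = 0.00458). In the pathway lists it added Tnc (0.0358) and Hyal3 (0.0112), and in the marker lists Msi1 as higher and Tubb3, Stmn2 and Gja1 as lower. At least 2-fold, 608 genes were higher and 453 lower, 1 member was higher (Acan) and 1 lower (Chsy3). Of the lists, 1 linker, 0 sulfation, 1 supply, 1 heparan sulfate, 1 degradation, 2 partner or hyaluronan, 2 other proteoglycan and 1 receptor gene then passed. At an adjusted p under 0.01, 1 member was lower, and 5 sulfation, 3 supply and 2 receptor genes passed. Without moderation 1 member was lower and 5 sulfation and 2 receptor genes passed. Leaving out 1 array gave 5 to 6 members higher and 1 to 2 lower, 5 to 8 sulfation, 3 to 6 supply and 2 to 4 receptor genes called, and a difference in change of Csgalnact2 minus Csgalnact1 of −0.0733 to 0.08, from which nothing is read since Csgalnact1 lay at background. Ncan and Bcan, neither called, changed sign: Ncan was −0.0362 with arrays centred on their medians and −0.0385 to 0.0748 with 1 array left out, and Bcan was −0.0388 to 0.0168 with 1 array left out. The cause of these changes was not tested beyond the fewer samples or stricter limits that define them. Both filters on low values left out Csgalnact1, Ncan and Bcan, and the stricter one also Acan, so no value exists for them there. Background limits the fold of Chsy3 and Acan, and the absence of raw intensities prevents another summarization of the probes.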

Other observations

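Heparan sulfate, the other chain built on the shared linker, had 6 of its 17 measured enzymes higher and 3 lower in knock-out cells. Their median log2 fold change was +0.02, and 31.6% of all genes were called. Of the 6, Ndst4 and Hs3st3a1 lay at background in both genotypes, and filters on low values left 7 of the 9 calls. Hs6st2, an X-linked heparan sulfotransferase, read 10.16, 10.09 and 10.24 in knock-out cells, against 6.88, 6.86 and 6.92 in wild-type cells, a log2 fold change of +3.28 (SE 0.06, limma adjusted p = 1.22e-10). Its relative Hs6st1 fell by 0.65 on the log2 scale (adjusted p = 3.95e-05). Ndst2, which starts sulfation of the chain, rose by 0.65 (adjusted p = 2.39e-05), and the epimerase Glce fell by 0.56 (adjusted p = 0.000212). The polymerase subunit Ext1 had a log2 difference of −0.06 (95% interval −0.18 to 0.07, adjusted p = 0.544).

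Of 5 neuronal receptors for chondroitin sulfate and myelin inhibitors, 2 rose and 2 fell, beside 31.6% of all genes called. Rtn4rl1 read 7.42, 7.16 and 7.28 in knock-out cells, against 5.80, 5.86 and 5.94 in wild-type cells (log2 +1.42, SE 0.08, adjusted p = 2.92e-07), and Rtn4rl2 fell by 0.49 (adjusted p = 0.000265). Rtn4r passed as higher (+0.26, adjusted p = 0.0163) and Ptprf as lower (−0.27, adjusted p = 0.0244). Both calls were lost without knock-out replicate 3 (adjusted p = 0.064 and 0.091) and without wild-type replicate 3 (0.0592 and 0.0867), which left 2 of the 5 called, and with unmoderated variances (0.0666 and 0.113). The call of Ptprf was also lost without knock-out replicate 1 (adjusted p = 0.0532) or wild-type replicate 1 (0.0558). Ptprs, a phosphatase receptor of chondroitin sulfate, had a log2 difference of 0.10 (adjusted p = 0.31).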
